A study of Homo sapiens with 9 samples.

Results

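The baseline transcriptome of MDA-MB231 cells was read from the 4 vehicle-treated arrays of a series of 9 Affymetrix PrimeView arrays. The members were chosen by their labels, which name them as controls, and the 2 arrays of BB94 and 3 arrays of PD325901 were not compared with them. MDA-MB231 is an established human breast cancer cell line that grows as a monolayer, and all 9 cultures were of this line, plated in 10 cm dishes at 70% confluency in DMEM with 10% FBS. On the next day the medium was renewed, with 0.1% DMSO for the 4 controls, and the cells were collected 24 h later. The labels also describe the culture as 90% confluent, without saying at which step. The series as a whole asks how kinase inhibitors and metalloproteinase inhibition alter receptor tyrosine kinase shedding, and the vehicle cultures are its reference state. One line in 1 condition is described here, so there is no comparison between groups and no test.

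Each value is a log2 RMA value, the authors' summary of the probes of a probe set, and an increase of 1 is a doubling of signal. The annotation tied 44988 of 49395 probe sets to 1 gene symbol, and the brightest probe set of each gene over the 4 arrays stood for it, which gave 18132 genes. Because probes differ in how strongly they bind, a rank among genes is a rank of signal and does not give the number of transcripts. The background level of an array was its highest value among 23 probe sets that match no human transcript, and lay at 6.28, 6.02, 6.25 and 6.28 in replicates 1 to 4. A gene below it may still be transcribed at a level the array did not resolve. These are bulk cultures, so fewer cells with a transcript and less of it per cell cannot be told apart.

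The arrays were not equally alike. Replicates 1 and 2 differed by a median of 0.124 over all genes and replicates 3 and 4 by 0.117, while replicate 1 differed from replicate 4 by 0.266. All 6 pairs correlated at 0.9948 or above over genes, which share their probes and so do not measure agreement of any 1 gene. ACTB has control probe sets at both of its ends, and the 3′ signal minus the 5′ signal, a measure of how far the labelled RNA extends, was 3.89, 3.75, 3.46 and 2.96 in replicates 1 to 4, and for GAPDH it was 0.79, 0.82, 0.67 and 0.58. Replicate 4 was lowest in both. Genes that move with these differences are described after the levels.

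MDA-MB231 is used as a model of mesenchymal-like, triple-negative breast cancer. Triple-negative tumours lack the oestrogen and progesterone receptors and amplified HER2, and the mesenchymal-like state is one in which epithelial junction genes are off and cytoskeletal and matrix genes are on. Signalling through the RAS, MEK and ERK kinases is known to be active in this line without added ligand, and ERK induces both growth genes and its own feedback inhibitors.

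Of the 18132 genes, 10383 (57.3%) lay above background on all 4 arrays, 7213 (39.8%) lay below it on all 4, and 536 (2.96%) were mixed. The median level was 7.56. By gene type, 59.4% of 17270 protein-coding genes were above background, against 14.1% of 454 long noncoding RNA genes and 16.5% of 279 transcribed pseudogenes. A total of 578 genes reached a level of 13 or more. The 57.3% of all genes above background is the share beside which each list count below can be read.

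**Figure D1:**
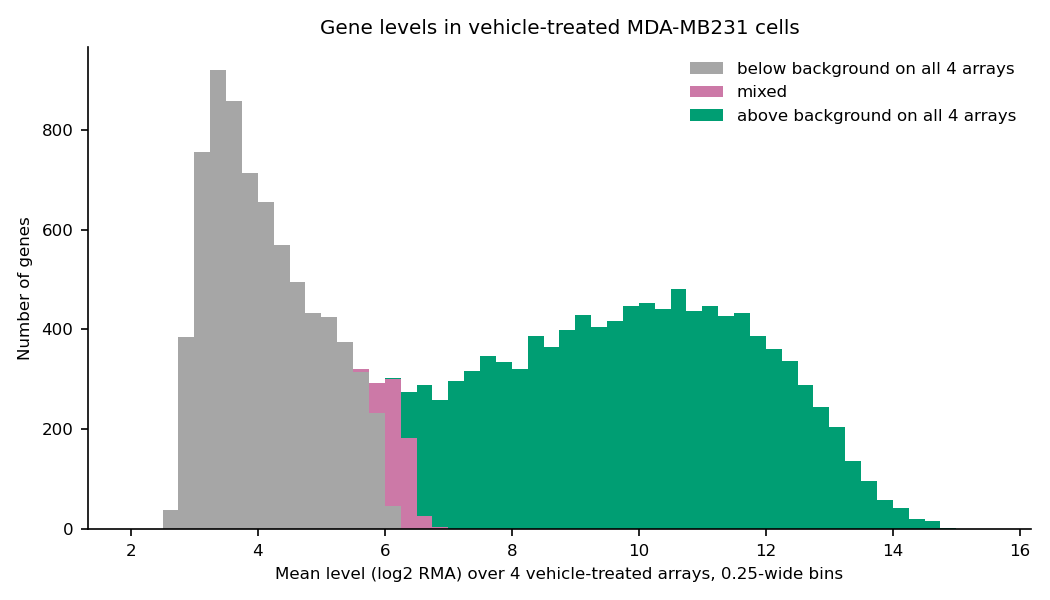
Number of genes (vertical axis) by mean level over the 4 vehicle-treated arrays (horizontal axis, log2 RMA), coloured by whether the gene lay above the array background on all 4 arrays, on some, or on none. The genes form a low mode of 7213 genes and a broad high mode of 10383 genes, with 536 mixed genes between them.

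The strongest signals came from the translation machinery. RPL22, a protein of the large ribosomal subunit, ranked 1 of 18132 on every array, with levels of 14.80, 14.90, 14.95 and 15.01 in replicates 1 to 4. Of the 25 highest genes, 20 encode ribosomal proteins, FAU included, which encodes a ubiquitin-like protein fused to one. The others were MT2A (mean 14.73), a metal-binding metallothionein, the elongation factors EEF1A1 (14.73) and EEF1B2 (14.46), TMSB10 (14.60), which binds actin monomers, and COX6A1 (14.52), a subunit of cytochrome c oxidase. The order inside this set is narrow: levels fell from 14.92 for RPL22 to 14.45 for RPS27 at rank 25, and EEF1A1 moved between rank 2 and rank 16 across the arrays.

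Vertebrate ribosomal protein genes and several translation factor genes begin transcription inside a run of pyrimidines, a feature that places their messages under growth-dependent translational control. The 30 bases around the annotated start were therefore read for the 22 of the 25 highest genes that have a RefSeq promoter entry (GRCh38.p14). A run of at least 8 pyrimidines lay within the window from 10 bases before to 15 after the start in 16 of the 22. In all, 6 examples with such runs and 3 without are printed 5′ to 3′, 15 bases before and 15 after the start, with the longest pyrimidine run of that window in capitals.

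RPL24: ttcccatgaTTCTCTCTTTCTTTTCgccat
RPS10: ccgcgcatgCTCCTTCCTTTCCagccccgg
RPL37A: gcaccgcgTCTCTTCCTTTCTgggctcgga
FAU: cgccctcgCTTCTTCCTCTTTCTCgactcc
RPL7A: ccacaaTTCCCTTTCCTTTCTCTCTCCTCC
EEF1A1: gtcgccgtgaacgTTCTTTTTCgcaacggg
COX6A1: ttccggcgctgcggcagTCCagatcaaaaa
EEF1B2: gccggaagtggCCCCagcctcgaggccggg
RPL6: tatttgtaTCCTCagtgaatcagaaccaga

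In GRCh38.p14 these windows are chr3:101686704-101686733 for RPL24, chr6:34426055-34426084 for RPS10, chr11:65122120-65122149 for FAU and chr6:73521018-73521047 for EEF1A1, all on the minus strand. RPL37A lies at chr2:216498829-216498858, RPL7A at chr9:133348203-133348232, COX6A1 at chr12:120438098-120438127 and EEF1B2 at chr2:206159594-206159623, on the plus strand, and RPL6 at chr12:112411428-112411457, on the minus strand. The run is 16 bases long in RPL24 and FAU, 24 in RPL7A, where it reaches the edge of the window, 9 in EEF1A1 and 3 in COX6A1, which encodes no part of the translation machinery. Over all 14425 genes with a promoter entry, 11.3% had a run of 8 or more in that window on the gene's own strand. The share was 76.4% of 55 ribosomal protein genes, 15.8% of the 443 other genes with a level of 13 or more, and 11.1% of genes below background. These are descriptions of the letters at annotated starts, which were not checked in these cells.

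All 65 measured cytosolic ribosomal protein genes lay above background, with a median level of 14.19 and a median percentile of 99.7 among all genes. They made up 55 of the 181 genes in the top 1%. Their median SD over the 4 arrays was 0.06, against 0.145 over all genes above background. RPL27A was the lowest at 8.59 and RPL35A followed at 10.79, with SDs of 0.16 and 0.04. RPL27A has only 1 probe set on the array, so its place far below its partners in the same particle rests on that probe set. All 34 translation factors were above background as well, with a median of 13.24, and the lowest was EEF1A2 (6.60), the form of the elongation factor known from muscle and nerve. Of 8 paralogs of ribosomal proteins listed as forms of restricted tissues, 5 (62.5%) lay above background, against 57.3% of all genes. They were RPS27L (13.10), RPL7L1 (12.72), RPL26L1 (12.57), RPL22L1 (12.25) and RPL39L. The 3 below background on all 4 arrays included RPL10L (4.77) and RPL3L (3.73), known from testis and muscle.

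Energy and protein folding genes followed. Of 23 glycolysis and lactate export genes 20 were above background, led by PGAM1 (13.91), GAPDH (13.85), LDHB (13.72) and LDHA (13.72), and the glucose transporter SLC2A1 was at 13.33. The 3 below background were HK3 (5.88), PGAM2 (4.53) and LDHC (3.87), isoforms known from blood cells, muscle and testis. Of 44 respiratory chain and ATP synthase genes 41 were above background, and the 3 below were COX6A2 (5.40), COX4I2 (4.57) and COX7A1 (3.95), which are tissue-restricted isoforms. All 20 chaperone genes were above background at a median of 13.10, HSPA8 (14.12) highest. In the proteasome core 16 of 18 were above, and the 2 below, PSMA8 (3.03) and PSMB11 (2.86), are the testis and thymus forms. Every member of the glycolysis, respiratory chain and proteasome lists below background was a form of restricted tissues. The converse did not hold, since the glycolysis isoforms PKLR, ENO3, ENO2 and ALDOC, also known from restricted tissues, were above background.

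Promoter sequence also differed between the levels. The median ratio of observed to expected CpG in the 250 bases before the start was 0.394 for genes below background and 0.880 for genes at 13 or more. Of 9392 genes with a ratio of at least 0.6, 20.6% lay below background on all 4 arrays, against 67.3% of the 5033 genes with a lower ratio. The letters CCGGAAG, on either strand, which match the core of ETS family sites, occurred in 4.51% of promoters of genes below background and in 23.1% of those at 13 or more, against 12.1% overall. GGGCGG, on either strand, the letters bound by SP1-type factors, occurred in 38.2% and 71.5%, against 57.2% overall. Both CCGGAAG and GGGCGG contain CG, so their shares cannot be told apart from the CpG difference. Other letters did not rise in this way. CCAAT, on either strand, occurred in 33.6% of promoters of genes below background and 38.3% of those at 13 or more. CAGGTG, on either strand, occurred in 19.7% and 12.8%. TATAAA, searched on the gene's strand from 45 to 16 bases before the start, occurred in 6.72% of genes below background, 1.07% of those between 10 and 12, and 4.05% of those at 13 or more. In all, 2 promoters of high genes, MT2A and CCN2, and 2 of genes below background are printed, PTPRC as a CpG-poor and MTAP as a CpG-rich example of the latter, with GGGCGG or its complement in capitals throughout, TATAAA also in MT2A and CCN2, and the AP-1 letters TGACTCA in MT2A.

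MT2A: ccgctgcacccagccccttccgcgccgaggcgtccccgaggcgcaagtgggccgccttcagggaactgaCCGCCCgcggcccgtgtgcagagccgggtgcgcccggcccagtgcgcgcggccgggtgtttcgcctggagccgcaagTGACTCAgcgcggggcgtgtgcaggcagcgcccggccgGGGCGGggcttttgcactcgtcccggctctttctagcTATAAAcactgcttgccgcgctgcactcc
CCN2: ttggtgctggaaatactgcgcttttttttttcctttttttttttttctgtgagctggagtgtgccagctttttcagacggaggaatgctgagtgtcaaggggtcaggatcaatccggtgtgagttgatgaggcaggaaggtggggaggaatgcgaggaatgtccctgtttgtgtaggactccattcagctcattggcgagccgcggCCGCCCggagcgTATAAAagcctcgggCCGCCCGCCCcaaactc
MTAP: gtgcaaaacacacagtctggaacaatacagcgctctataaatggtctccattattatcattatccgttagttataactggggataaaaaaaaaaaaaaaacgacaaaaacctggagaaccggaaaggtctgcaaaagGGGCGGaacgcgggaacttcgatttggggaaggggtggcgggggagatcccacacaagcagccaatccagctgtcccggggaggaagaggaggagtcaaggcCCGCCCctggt
PTPRC: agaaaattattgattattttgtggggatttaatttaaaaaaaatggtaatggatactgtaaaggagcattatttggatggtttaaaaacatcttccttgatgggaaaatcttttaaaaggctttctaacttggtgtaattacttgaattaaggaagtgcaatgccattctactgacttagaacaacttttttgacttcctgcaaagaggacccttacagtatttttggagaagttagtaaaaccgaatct

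These are the 250 bases before the start in GRCh38.p14: chr16:56608334-56608583 (plus strand) for MT2A, chr6:131951373-131951622 (minus) for CCN2, chr9:21802386-21802635 (plus) for MTAP and chr1:198638790-198639039 (plus) for PTPRC. TATAAA begins 29 bases before the start in MT2A and 32 before it in CCN2, both inside the searched range. TGACTCA or TGAGTCA occurred in 3.19% of all promoters, in 4.41% of those of genes below background and in 2.83% of those at 13 or more. In MT2A TGACTCA begins 104 bases before the start. The CpG ratio was 0.957 in MT2A and 0.762 in CCN2, and 0.174 in PTPRC, the pan-leukocyte gene CD45 with a level of 3.36. MTAP, a methionine salvage enzyme of 9p21, had a ratio of 0.721 and a level of 3.62, so it belongs to the 1939 genes with a CpG-rich promoter that lay below background.

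The receptors that define triple-negative disease were at or near background. ESR1, the oestrogen receptor, was at 4.79, 4.15, 4.39 and 4.40 in replicates 1 to 4, and all 5 of its probe sets lay below background. PGR, the progesterone receptor, was at 5.13 ± 0.38 (SD, n = 4) and ESR2 at 5.77 ± 0.13, also below on all arrays. ERBB2, which encodes HER2, was above background at 7.70 ± 0.14, close to the median of all genes, with 1 of 5 probe sets above. ERBB3 was above background on 3 of 4 arrays, since replicate 2 read 5.98 where the others read 6.50 to 6.54. ERBB4 was below background everywhere, and its values ran from 3.48 in replicate 4 to 5.56 in replicate 1.

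Mesenchymal genes ranged widely. Their median level was 8.89 and their median percentile 60.4 among all genes, and 3 of the 23 reached a level of 13 or more. VIM, the intermediate filament vimentin, was at 13.94, 13.99, 14.10 and 14.08, at the 99.6th percentile, and both of its probe sets were above 13. AXL, a receptor tyrosine kinase tied to the mesenchymal state, was at 13.71 ± 0.03, and MSN (13.13) and LGALS1 (12.54) followed. Of 23 mesenchymal genes 18 (78.3%) lay above background, against 57.3% of all genes. Among the transcription factors that repress epithelial genes, ZEB1 (11.73, with 6 of 7 probe sets above) and ZEB2 (10.70) were high. The other probe set of ZEB2 read 3.45, below background. SNAI2 (8.07) and SNAI1 (6.76) were lower, and TWIST1 (2.79) was below background. FAP (3.07), a protease of activated fibroblasts, and N-cadherin, CDH2 (6.78), were low.

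Epithelial genes were divided. CDH1, the junction protein E-cadherin, was at 3.56, 3.54, 3.32 and 3.60, below background on each array, and neither of its 2 probe sets was above. RAB25 (3.61), GRHL2 (3.66), CLDN3 (4.35) and the splicing factor ESRP1 (4.63) were below background too. Of 21 epithelial genes 11 (52.4%) were above, near the 57.3% of all genes. The highest were TJP1 (12.54), which also serves non-epithelial contacts, DSP (12.16) and EPCAM (9.42, with 3 of 3 probe sets above). The simple epithelial keratins were present, KRT18 at 12.01 ± 0.49, KRT19 at 10.87, 10.84, 11.11 and 11.21, and KRT8 at 10.02 ± 0.27, and of the basal keratins KRT15 (7.07) was above background and KRT5 (4.34) and KRT14 (3.43) were below. Of 18 basal and myoepithelial markers 11 were measured, and 5 of these (45.5%) were above, EGFR (10.39), ACTA2 (9.12) and CDH3 (7.61) the highest. ACTA2 and CDH3 each rest on 1 probe set. The other probe sets of ACTA2 read 4.50 and 2.91 and that of CDH3 read 4.90. With all probe sets of a gene averaged, 2 of the 11 were above, where 8829 of the 18132 genes were. Only 7 of 20 keratins (35.0%) were above. Of 15 luminal markers 10 (66.7%) were above, against 57.3% of all genes. The highest were KRT18, SLC39A6 (11.99, with 3 of 3 probe sets above) and KRT19. The luminal factors FOXA1 (10.29) and GATA3 (7.80) each rest on 1 probe set. The other probe set of FOXA1 read 5.66 and those of GATA3 read 5.50 and 5.13, below background. Of 11 stem cell and claudin-low markers 8 (72.7%) were above. ITGA6 (13.94), CD44 (13.09, with 10 of 10 probe sets above), NT5E (12.89) and SOX9 (12.83) led them. THY1 (4.59), ALDH1A1 (4.41) and PROM1 (3.33) were below on all arrays. CD24, which such cells are described as lacking, read 11.79 on its only probe set.

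**Figure D2:**
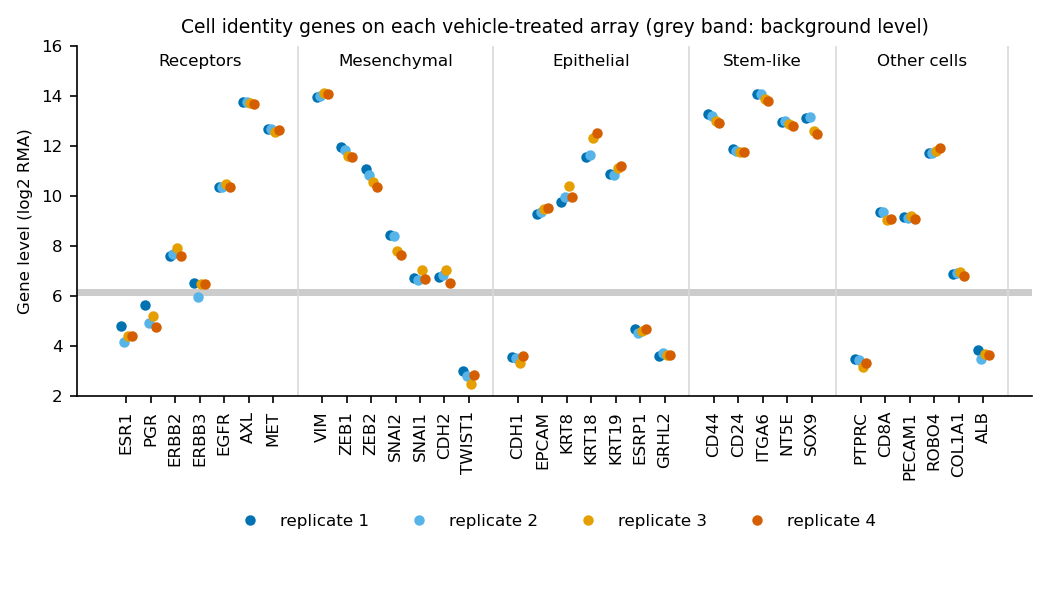
Level (log2 RMA, vertical axis) of cell identity genes on each of the 4 vehicle-treated arrays, 1 point per array, with the range of the array backgrounds as a grey band. ESR1, PGR, CDH1 and TWIST1 lie below the band on all arrays, and VIM, AXL, CD44 and ITGA6 lie at 12.9 or above on each.

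Markers of other cell types were mostly below background. Of 19 white blood cell markers 2 were above, and PTPRC, the gene that marks all of them, was at 3.36 with 0 of 6 probe sets above. The 2 were CD8A (9.21) and LYZ (7.20), whose other probe sets read 4.11 and 3.91. Of 12 fibroblast and pericyte markers 3 were above background, RGS5 (7.01), COL1A1 (6.89) and CSPG4 (6.66), while COL1A2 (4.03), COL3A1 (3.87) and DCN (3.55) were below. Of 10 endothelial markers 4 were above: ROBO4 (11.78, with 3 of 3 probe sets above), ESAM (10.95), PECAM1 (9.15) and TIE1 (7.38). The other probe sets of ESAM and PECAM1 read 3.43 and 4.20, and TIE1 had 2 of 7 above. VWF (6.04) and CDH5 (4.87) were below. Of 19 markers of blood, liver, muscle, nerve, lens and pancreas 4 were above, and SERPINA1 (10.90), a protease inhibitor best known from liver, had 3 of 4 probe sets above, while ALB was at 3.66. Among 333 olfactory receptors, genes that these cells would not be thought to use, 1 was above background (OR4N2, 7.76), and their median was 3.26.

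Of 48 measured receptor tyrosine kinases 20 (41.7%) lay above background, against 57.3% of all genes, and the median level of the list was 5.87. AXL was highest, followed by MET (12.63 ± 0.06), the receptor of hepatocyte growth factor, RYK (12.50), INSR (12.13), EPHA2 (11.27) and FGFR1 (11.04). EGFR read 10.35, 10.35, 10.47 and 10.37, a spread of 0.12, and ranked at the 74.5th percentile, with 4 of 8 probe sets above background. The relatives of AXL, MERTK (8.24) and TYRO3 (7.36), were above background as well. Receptors at the other end included KIT (3.97), RET (3.90), ALK (3.83) and ROS1 (3.42). Of 29 ligands 17 (58.6%) were above background, near the share of all genes, led by PDGFC (13.02), HBEGF (12.53), VEGFA (12.49) and PDGFA (12.46). EREG (12.17), HBEGF and TGFA (8.46) bind EGFR and are released by shedding, and the AXL ligand GAS6 was at 9.90. HGF, the ligand of MET, was at 3.27, below background on all arrays.

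The proteases that shed receptors and remodel matrix showed a wide range. MMP1, an interstitial collagenase, read 13.98, 13.99, 13.94 and 13.98, rank 91 of all genes, and both probe sets lay above background. ADAM17, the sheddase of EGFR ligands, was at 12.48 ± 0.12, though 1 of its 4 probe sets was above background, and ADAM10 was at 9.50 ± 0.13 with 4 of 4 above. ADAM9 was at 12.66 and MMP14, a membrane collagenase, at 9.87 ± 0.26. Their inhibitors TIMP2 (12.43), TIMP1 (12.30) and TIMP3 (11.35) were high, TIMP4 (5.75) was below background, and the urokinase pair PLAU (11.29) and PLAUR (10.89) was present. Of 36 proteases and inhibitors 27 (75.0%) lay above background, against 57.3% of all genes, and MMP2 (4.68), MMP7 (4.62), MMP12 (3.81) and MMP8 (3.27) did not.

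Matrix and adhesion genes were led by CCN2 (14.06), a matricellular protein induced by YAP and TGF-beta signalling, CCN1 (12.94) and LAMC1 (12.71). Of 35 matrix genes 28 (80.0%) were above background, against 57.3% of all genes. Basement membrane chains COL4A2 (11.72) and COL4A1 (10.80) were above background, and of the fibrillar chains COL5A1 (10.06), COL1A1 (6.89) and COL5A2 (6.69) were above and COL1A2 (4.03) and COL3A1 (3.87) below. ITGA6 and ITGB1 (13.76) were the highest of 25 integrins, 12 of which (48.0%) were above background, a share below that of all genes. Integrins known from platelets and leukocytes went both ways. ITGAE (11.94) and ITGB2 (8.41) were above and ITGA2B (5.14), ITGAL (4.90) and ITGAM (4.23) below. All 30 actin, tubulin and motility genes were above background at a median of 13.06, with TMSB10, ANXA2 (14.26), TMSB4X (14.16) and CFL1 (14.07) highest and FSCN1 (8.73) lowest.

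ERK target genes were high in the untreated state. Of 20 output and feedback genes 19 lay above background, at a median of 11.47 and a median percentile of 85.3. IER3 was at 14.03 ± 0.04 and EGR1 at 13.62, 14.08, 13.88 and 13.78. The ERK phosphatases DUSP5 (13.51), DUSP6 (13.36) and DUSP4 (12.14), the ETS factor ETV5 (12.76) and cyclin D1, CCND1 (12.61), were all above the 90th percentile. SPRY4, a feedback inhibitor upstream of ERK, read 11.18, 11.30, 11.26 and 11.09, with 1 of 3 probe sets above background. SPRED3 (5.70) was the member below background. Of 13 pathway members 11 lay above background, among them the GTPase HRAS at 8.98, the kinases MAP2K1 (11.78) and MAP2K2 (9.91), which are MEK1 and MEK2, and MAPK3 (8.36), which is ERK1. Of 26 immediate-early genes 21 were above background, IER3 and EGR1 among the highest, with FOSL1 at 11.41 and FOS at 9.14, and NR4A2 (5.46) and EGR4 (4.51) were below it.

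Among inflammatory genes CXCL8, a neutrophil chemokine, was at 13.14, 13.23, 12.79 and 12.83, and CXCL1 (11.80), CXCL2 (11.52) and CXCL3 (10.85) share its receptor. The level of CXCL8 rests on 1 of 3 probe sets. LIF (9.66), IL11 (8.44), IL1B (8.50) and IL6 (7.85) were above background, and TNF (5.16), CXCL10 (5.03), CCL5 (4.26) and CXCL12 (3.62) were not. Of 28 cytokine genes 19 (67.9%) were above, and of 28 interferon-stimulated genes 21 (75.0%), against 57.3% of all genes, with IFITM3 (13.06) highest and BST2 (3.18) and RSAD2 (3.89) lowest. Antigen presentation was represented by B2M (13.56), HLA-B (11.54), CD74 (11.37) and HLA-E (10.83), with 19 of 21 genes above. Of 23 genes that have been linked to metastasis in sublines of this line, 19 were above background, and CCN2, MMP1, ROBO1 (12.29) and EREG led them. VCAM1 (3.24) and IL13RA2 (3.43) were the lowest.

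Cell cycle genes were high as a set. Of 32 G1/S and replication genes 31 were above background, at a median of 11.68, with CDC6 (13.71), RRM2 (13.68), TYMS (13.26) and E2F3 (13.21) highest. MCM5 (5.44) was the exception, measured by 1 probe set, while its partners in the same helicase ran from MCM2 (10.46) to MCM4 (12.88). All 31 mitosis genes were above, from AURKA (13.42), BIRC5 (13.10) and CDK1 (13.05) to PLK1 (8.57) and ESPL1 (8.55). Of 22 tumour suppressor genes 20 were above background, including CDKN1A (11.92), BRCA1 (11.72) and RB1 (11.04). The 2 below were CDKN2A (5.58) and CDKN2B (3.46), neighbours on 9p21.

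Of 39 nuclear receptors 24 (61.5%) were above background, near the 57.3% of all genes, VDR (11.38) and the glucocorticoid receptor NR3C1 (11.14, with 9 of 10 probe sets above) highest, and NR2E1 (3.40) and RXRG (3.47) lowest. Of 27 measured HOX genes 10 (37.0%) were above, from the HOXB and HOXC clusters, HOXC6 (8.70) and HOXB9 (8.68) highest. HOXA2 (3.46) was the only HOXA gene among the 27, so these values do not describe that cluster. Of 16 cancer-testis genes 2 were above, MAGEB2 (7.90) and CTCFL (6.60). Sterol synthesis genes were high, with 17 of 18 above background, INSIG1 (13.33) and MSMO1 (13.29) leading and SREBF1 (6.33) above on 3 of 4 arrays. Of 22 genes of the unfolded protein and amino acid responses 20 were above, CANX (13.88) and ATF4 (13.56) highest, and the stress genes DDIT3 (5.69) and CHAC1 (5.27) were below.

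**Figure D3:**
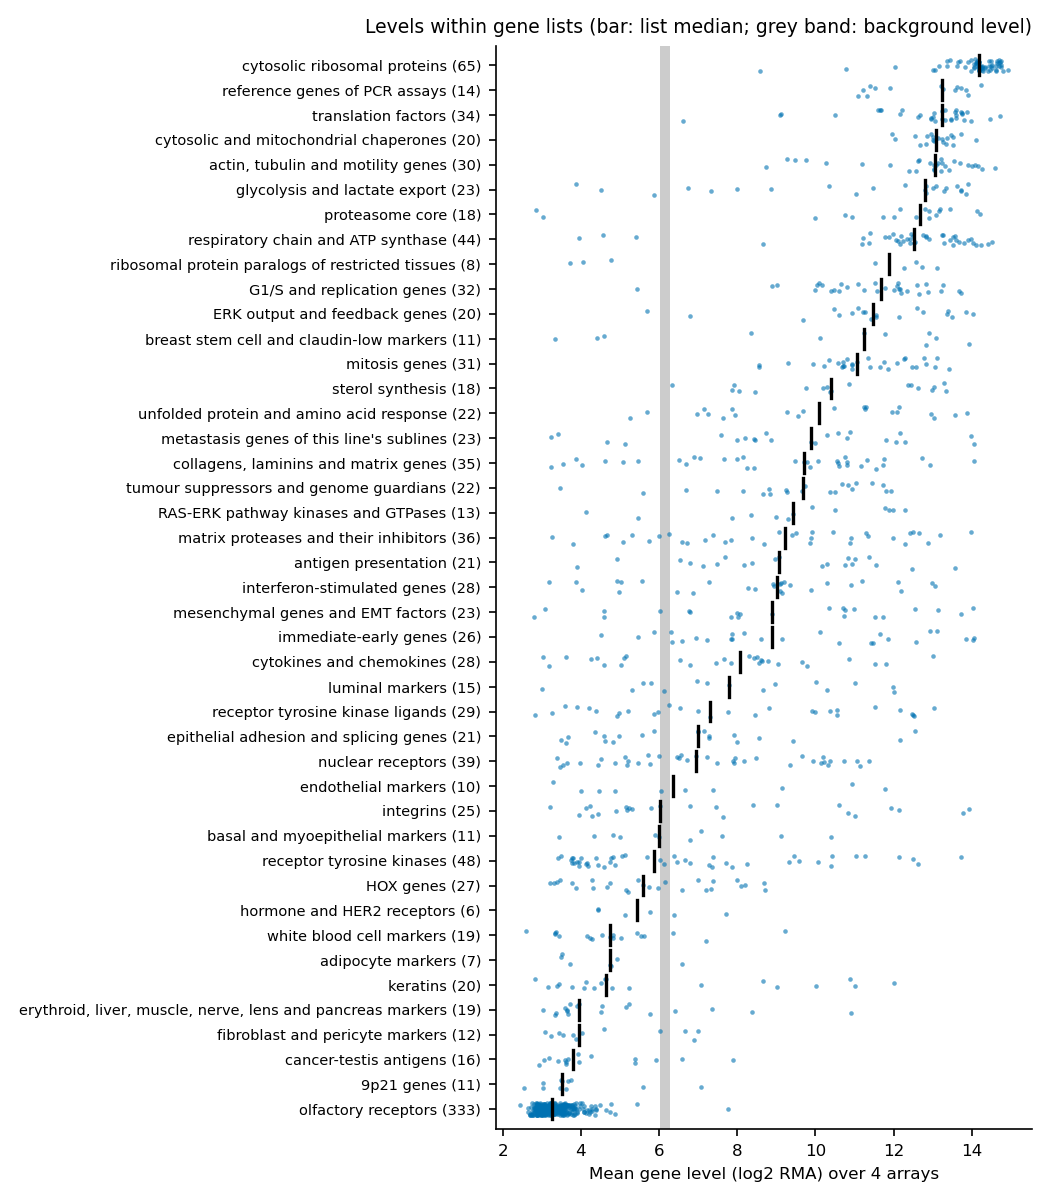
Mean level over the 4 arrays (log2 RMA, horizontal axis) of every measured member of each gene list, with the list median as a black bar, the range of array backgrounds as a grey band and the number of measured members in brackets. Ribosomal proteins (median 14.19) lie at one end and olfactory receptors (median 3.26) at the other.

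A stretch of 9p21 was silent throughout. From FOCAD to ELAVL2, 24 measured genes in a row lay below background on all 4 arrays, and 0 of their 43 probe sets were above it. The group holds 14 interferon genes, which are silent in most cells without infection, and 10 others. The others include MTAP, which read 4.42, 3.46, 3.26 and 3.35, FOCAD (3.50), HACD4 (3.76) and KLHL9 (3.67), and the cell cycle inhibitors CDKN2A, at 5.87, 5.57, 5.52 and 5.37, and CDKN2B, at 3.52, 3.33, 3.54 and 3.43. CDKN2A encodes p16 and p14ARF and CDKN2B encodes p15, and CDKN2A, with 3 probe sets, was the highest of the 24. The flanking measured genes were above background on all arrays, MLLT3 at 7.06 ± 0.31 on one side and TUSC1 at 9.22 ± 0.11 on the other, with RPS6 (13.98) and CAAP1 (10.62) further out. Between MLLT3 and RPS6, SLC24A2 (2.79) and ACER2 (3.78) were below background as well, and with the array median over genes in place of the background MLLT3 was not above, so that edge of the run rests on its level. Runs of at least this many genes below background occurred 6 times across the genome with the Y chromosome left out, this one included. The other 5 are 3 runs that contain olfactory receptor clusters, the longest with 60 genes, and the runs from TMPRSS11E to AMBN and from TAS2R3 to TAS2R40, each with 25 genes. Array levels do not show whether the DNA of this stretch is present, and copy number was not analysed here.

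**Figure D4:**
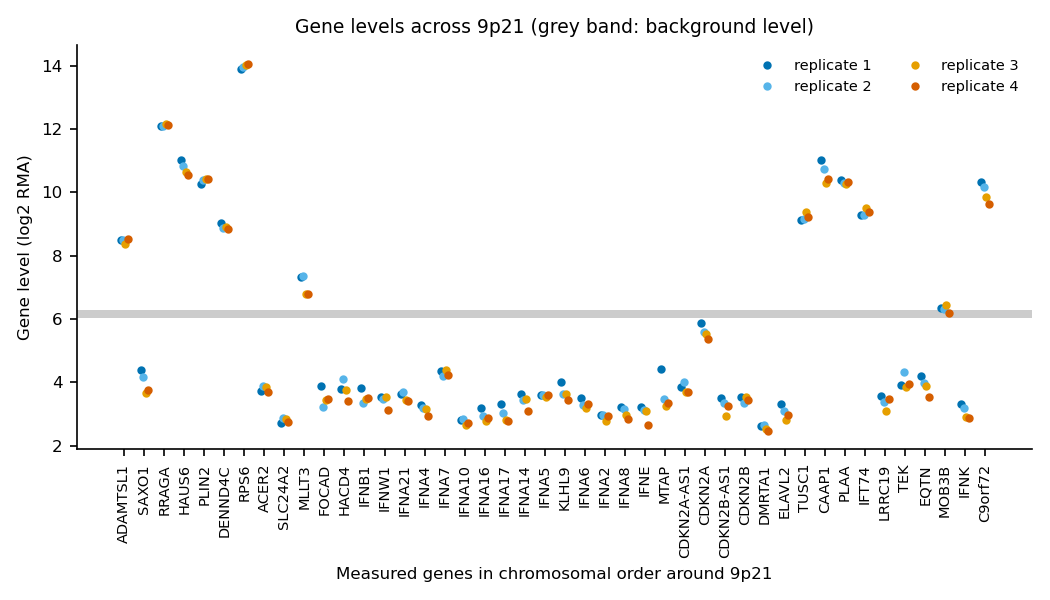
Level on each array (log2 RMA, vertical axis) of measured genes in chromosomal order around 9p21 (horizontal axis, by order and not to scale in distance), with the range of array backgrounds as a grey band. All 24 genes from FOCAD to ELAVL2 lie below the band, and MLLT3 and TUSC1 on either side lie above it.

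The 4 cultures agreed closely for most genes. The SD over the 4 arrays had a median of 0.163 over all genes and of 0.145 over those above background, 81.7% of which had an SD under 0.25. Agreement was closest for the strongest genes, with a median SD of 0.087 in the highest decile and 0.164 in the lowest decile of genes above background by level. The 18 probe sets for RNAs added at hybridisation, which carry no difference between cultures, had SDs of 0.046 to 0.133. Genes usually chosen as references in PCR assays had SDs of 0.03 for PPIA and TFRC, 0.05 for HPRT1, 0.11 for ACTB and GAPDH, 0.23 for TBP and 0.28 for SDHA, the most variable of 14. Among genes above background, the 5 with the smallest SD, WIPI1, PURB, FAM120A, DHDDS and C19orf12, had levels between 9.85 for WIPI1 and 13.12 for FAM120A.

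Only 118 of the 10383 genes above background had an SD over 0.5, and 2 had one over 1. THBS1, a matrix glycoprotein that restrains angiogenesis, varied most, at 10.87, 10.45, 8.11 and 9.35, a range of 2.76. Its other 4 probe sets, at mean levels of 8.76, 7.23, 6.40 and 4.82, had SDs of 0.09 to 0.29, so the difference was seen by 1 of 5. ZDBF2, an imprinted gene, was at 10.15, 9.71, 8.07 and 8.30 on its only probe set. EEIG2 was at 11.18, 11.06, 9.97 and 9.28, and its second probe set, although below background, was also lower in replicates 3 and 4.

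MYC, the growth-promoting transcription factor, read 11.20, 11.22, 10.29 and 9.74, with 1 probe set. SP1, a general promoter-binding factor, read 9.50, 9.22, 8.11 and 7.77, while its second probe set above background read 7.97, 7.74, 6.86 and 7.76, low in replicate 3 alone. PTGS2, the inducible cyclooxygenase, with an SD of 0.62 and not among the 15 largest, read 10.85, 10.81, 9.79 and 9.71. In 15 of the 15 genes with the largest SD both of replicates 1 and 2 were higher than both of replicates 3 and 4. Beside THBS1, ZDBF2, EEIG2, MYC and SP1, the 15 genes were ANKS1B, DNA2, ZNF468, ZNF280C, PRKCE, SHPRH, GALNT3, MEX3D, HNF4G and FGFR1OP2. Over the 118 genes, replicate 1 was the highest array for 103 and replicate 4 the lowest for 84. Over all 10383 genes above background, replicate 1 was the highest for 4288 and replicate 4 the lowest for 3781. KRT18 went the other way, at 11.57, 11.62, 12.33 and 12.52, with an SD of 0.49. Replicates carry no order in the labels, and no batch, harvest or scan record was used here, so what separates the cultures was not tested.

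The differences between arrays moved with gene length. Gene span, the distance on the genome from a gene's first to its last base in RefSeq (GRCh38.p14), was used because several genes with large differences were long, so this measure was chosen after their values were seen. Across 10377 genes above background, the level in replicate 4 minus that in replicate 1 had a Spearman correlation of -0.32 with gene span, and the other pairs lay between -0.30 and -0.10. Genes are not independent of each other and all values come from the same 4 arrays, so this is a description. In the decile of genes with the most negative difference, at a median of -0.70, the median span was 59.6 kb, and in the decile with the most positive, at a median of 0.47, it was 14.3 kb, at nearly equal median levels of 9.85 and 9.88. In the decile of longest genes replicate 1 lay 0.104 above the 4-array mean in the median and replicate 4 lay at -0.100, and in that of the shortest they lay at -0.080 and 0.052. The 118 genes with an SD over 0.5 had a median span of 50.2 kb, against 31.5 kb over all genes above background and 5.04 kb over the 25 highest. Replicate 4, with the lowest ACTB 3′ to 5′ difference, and replicate 1, with the highest, stand at the ends of this order. For GAPDH replicate 4 was also lowest, but replicate 2 (0.82) and not replicate 1 (0.79) was highest. The part of RNA quality in this order was not tested.

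**Figure D5:**
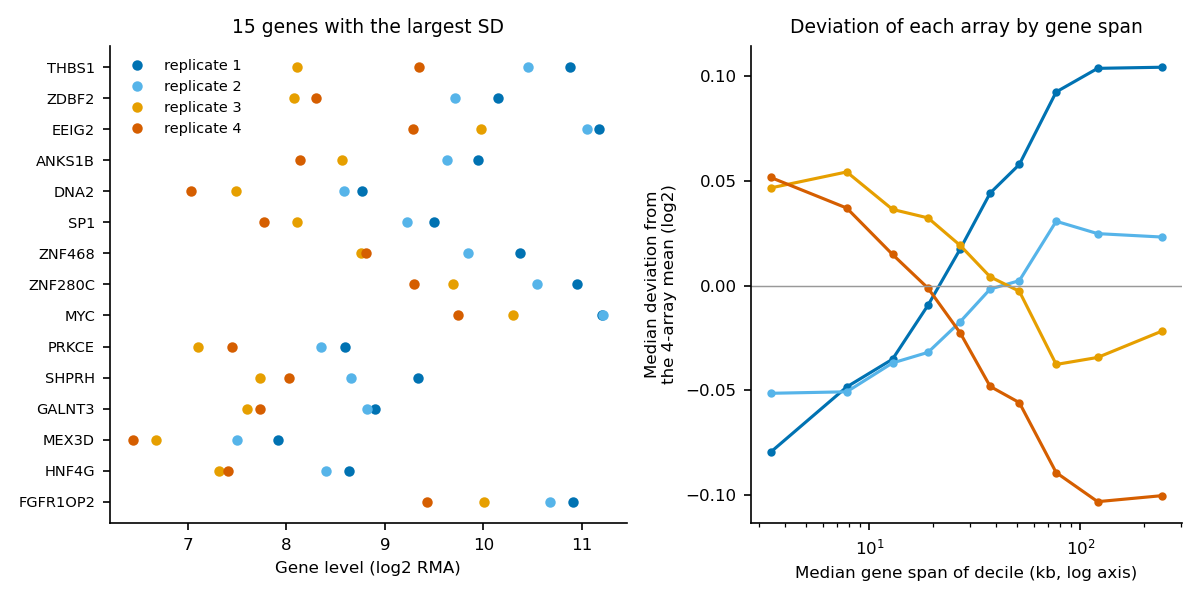
Left, level on each array (log2 RMA, horizontal axis) of the 15 genes above background with the largest SD, 1 point per array. Right, median deviation of each array from the 4-array mean (log2, vertical axis) against the median gene span of each decile of genes above background by span (kb, log axis): replicate 1 rises from -0.080 to 0.104 and replicate 4 falls from 0.052 to -0.100.

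How a gene's probe sets are combined bears on many single levels. Of 8032 genes above background with several probe sets, 3341 had every probe set above it and 1406 (17.5%) had more of them not above it than above. RPL22 itself rests on a probe set at 14.92, and its other 2 read 13.19 and 12.05. The counts and medians given for lists share this limit, since the brightest probe set favours a reading above background. With all probe sets of a gene averaged, 8829 of the 18132 genes lay above background in place of 10383. In that setting 13 of the 48 receptor tyrosine kinases were above in place of 20, and 11 of the 39 nuclear receptors in place of 24. Of the 12 fibroblast and pericyte markers 0 were above in place of 3. ERBB2 fell below background in that setting, so 0 of the 6 hormone and HER2 receptor genes were above. With the array median over genes as a stricter level in place of the background, 5 of the 21 epithelial genes and 5 of the 27 HOX genes were above it.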

How the data were processed

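RNA of 4 vehicle-treated MDA-MB231 cultures, which the labels call biological replicates, was measured on Affymetrix PrimeView arrays after Qiagen RNeasy extraction and NuGEN Applause labelling, per the labels' protocols. The deposited values are log2 probe set values that the authors made with RMA in the R package affy, per the series design text. RMA quantile-normalizes arrays, here together with those of the inhibitors, so differences in total RNA are removed. Arrays give no read depth, so precision is set by their number.

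Of 49395 probe sets, 102 control probe sets, 1832 with several gene symbols and 2473 with no gene listed in the platform annotation were left out of the gene levels. Of 18132 genes, 18112 matched RefSeq (GRCh38.p14), which gave names, order, span and promoters, and no symbol needed an update. The brightest probe set over the 4 arrays represented a gene. A gene was above background where it exceeded the highest of 23 background probe sets on all 4 arrays. Means, SDs, ranks and pairwise differences were computed in Python 3.11.15 with numpy 2.4.6 and pandas 2.3.3 and tested on simulated data. No significance test was made, because only 1 group is described.

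The members and lists were chosen with earlier results of these data known. The naming rule took the 25 highest genes, the 15 with the largest and 5 with the smallest SD among genes above background, the 4 highest and 2 lowest of each list, and a fixed set of which 48 were measured, 298 genes in all. Other list members and genes of the identity and 9p21 descriptions were named after their values were seen. Alternatives varied the probe set choice, the background level, the scaling and the replicates.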

Additional observations from a re-analysis of the deposited data

Results flagged for a closer look

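For each of the 298 genes chosen by the naming rule, the array farthest from the rest was compared with the whole range of the 4 values (Dixon's criterion). A single array stood apart for 13 of them (4.36%), and chance gives about 1 in 20. In replicate 1, FCGR3A (2.72), ITGA8 (3.34) and PGAM2 (4.74) were high and HBEGF (12.38) and IFITM2 (12.92) low. In replicate 2, ERBB3 was low at 5.98, below the background that the other 3 arrays exceeded. In replicate 3, CDT1 (9.10) and EGFR (10.47) were high and TFF3 (5.05) low. In replicate 4, ELF3 (8.39), FAP (2.99), PPIA (13.67) and ROS1 (3.00) were low. Of the 13, FCGR3A, ITGA8, PGAM2, TFF3, FAP and ROS1 lay below background on all 4 arrays, and for PPIA the other 3 arrays read 13.73 to 13.74.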

How the results depend on the processing

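No paired analysis was possible because a single group is described and no result comes from a test. Leaving out each replicate in turn, the count of genes above background on all remaining arrays ran from 10388 to 10494 and that below from 7220 to 7296, while the median SD over all genes ran from 0.129 to 0.176 (0.163 with all 4) and the median difference between arrays from 0.155 to 0.239 (0.164 with all 4). The lowest SD was without replicate 1 and the highest difference without replicate 2. Quantile normalization over genes gave a median SD of 0.136. Under the other choices the counts lay between 8717 and 10564 above background and between 6953 and 8805 below it. The 8717 was counted without probe sets that share sequence with other transcripts, which left 16701 genes in place of 18132. Averaging all probe sets of a gene moved the levels of 202 of the 298 named genes by more than their SD; it gave FOXA1 7.98, CXCL8 8.64, CD8A 6.66 and VIM 13.86. Without probe sets that share sequence with other transcripts, 28 of the ribosomal protein genes could be counted above background, because many have no other probe set, and CXCL8 read 6.61.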
